A study of Mus musculus with 12 samples.

Results

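The comparison sets newborn mouse bladders that carried either of a pair of smooth muscle reporter transgenes against wild-type bladders, and keeps the genes that differed in the same direction for both reporters. It uses 12 of 12 samples of the series, 6 transgenic and 6 wild type, each read on 1 single-colour Affymetrix array of the mouse genome. The samples carry database record numbers 2189 to 2200, and the comparison was balanced over the runs 2189 to 2194 (called the first run here) and 2195 to 2200 (the second run). The first run held 3 SMGA/EGFP arrays and wild type 1 to 3. SMGA/EGFP mice make a green fluorescent protein from the promoter of smooth muscle gamma actin. The second run held 3 SMAA/EYFP arrays and wild type 4 to 6, and SMAA/EYFP mice make a yellow fluorescent protein from the promoter of smooth muscle alpha actin. All mice were FVB/N at postnatal day 1 (Theiler stage 27), labelled male, and untreated. Whole bladders were taken and were not pooled.

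Some limits follow from that layout. Each reporter line lies in 1 run, so line and run cannot be told apart. Transgenic litters came from FVB/N females mated to transgenic males, so sire, litter and genotype cannot be told apart either. Founder number and zygosity are not given in the sources used here. Nothing says whether the arrays of a group came from separate litters, so every p-value measures only the spread between these samples. Array correlations over all probe sets lay between 0.948 and 0.986, median intensity lay between 229.39 and 305.94, and 0 pairs of arrays were identical. Wild type 4, in the second run, did not have the profile of a male: its Xist intensity was 29600 against 80.1 to 250 in the other arrays, and its Eif2s3y intensity was 26.7 against 3280 to 5100. Without it, counts past the threshold and list medians of 0.05 or more that moved by over 1.5 times are given beside the results.

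The bladder wall has an inner urothelium, a stroma rich in vessels, and an outer detrusor of smooth muscle. Umbrella cells at the urothelial surface carry plaques of uroplakins, which make the barrier to urine. The alpha and gamma smooth muscle actins, encoded by Acta2 and Actg2, are thin-filament proteins of the contractile cells. Their promoters are switched on by serum response factor and its partner myocardin through CArG boxes, and a reporter driven by either promoter marks smooth muscle without being meant to alter it. The question set by the design was whether carrying such a reporter shifts the expression profile of the bladder.

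The Acta2 promoter is shown because it belongs to the gene from which the SMAA reporter takes its name. The sequence is the endogenous mouse gene's 250 bases before its start in RefSeq (GRCm38.p6, chr19:34255374-34255623, minus strand), not the transgene construct, and Actg2 is not shown. Capitals mark 2 matches to a CArG box in which up to 1 inner base may be C or G, beginning 84 and 34 bases before the start. The motif reads the same on both strands, and these matches do not overlap each other.

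Acta2 promoter: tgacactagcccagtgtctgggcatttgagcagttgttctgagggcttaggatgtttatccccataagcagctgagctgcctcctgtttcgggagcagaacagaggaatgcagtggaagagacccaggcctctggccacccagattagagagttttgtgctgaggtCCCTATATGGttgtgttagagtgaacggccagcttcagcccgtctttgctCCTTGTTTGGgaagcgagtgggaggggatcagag

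In windows of 250 bases before to 50 after the start, 9.98% of 32851 promoters in the RefSeq table held such a match, and 1.63% held one with no inner C or G. A match describes letters and does not show a bound site.

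Neither smooth muscle actin gene differed detectably between transgenic and wild-type bladders. The Acta2 log2 level was 15.94, 15.97 and 15.88 in SMGA/EGFP against 15.90, 16.02 and 15.88 in wild type of that run. In the second run it was 15.89, 15.84 and 16.05 in SMAA/EYFP against 15.97, 15.89 and 16.02. The arrays overlapped in both runs, and the difference with run as a block was -0.02 ± 0.04 (SE, n = 6 and 6; limma adjusted p = 0.985). For Actg2 it was 0.00 ± 0.03 (limma adjusted p = 0.996). These probe sets ranked 7 and 29 by mean level on the array, near the top of its range. Differences can be compressed there, which was not tested.

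Across all probe sets, 0 of 22518 tested differed between transgenic and wild-type bladders (limma with run as a block, Benjamini-Hochberg adjusted p under 0.05; percent called 0%). The smallest adjusted p was 0.759. At an unadjusted p under 0.05 there were 1047 probe sets (4.65%), against 1125.9 that this threshold lets through by chance. Of those, 553 lay higher in both runs (2.46%) and 484 lower in both runs (2.15%). An exact permutation test of each probe set, exchanging labels only within a run (400 labelings, two-sided, smallest possible p 0.005), gave 997 at an unadjusted p under 0.05 and 0 after adjustment. Adjusted over 22518 probe sets, a p of 0.005 in that test passes only if a large part of the array reaches it. That 0 could therefore hardly have come out otherwise, and it adds nothing to the 0 from limma. The median standard error of a difference was 0.13, and 9 in 10 probe sets had a difference below 0.26 in size, all on the log2 scale.

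The reporters shared little direction over the array. Relative to the wild-type arrays of their own run, 5513 probe sets lay higher for both reporters (24.5%), 6309 lay lower for both (28%) and 10696 lay on opposite sides (47.5%). Across probe sets, which are not independent replicates, the within-run differences had a Pearson r of 0.07 and a Spearman rho of 0.08. Within the first run alone, SMGA/EGFP and wild type differed in 10 probe sets (limma adjusted p under 0.05, 0.0444%), and within the second run SMAA/EYFP and wild type differed in 0 (0%), where 988 had an unadjusted p under 0.05. The first-run count fell to as few as 2 when 1 array was left out, which happened without SMGA/EGFP 1, SMAA/EYFP 1 or wild type 1, 3 or 4. It was 3 without wild type 2, 5 without SMGA/EGFP 2 or wild type 5 or 6, and 6 without SMAA/EYFP 3. The contrast between the runs passed for 2 probe sets (0.00888%). One was for Atp6ap2, the prorenin receptor, at -1.37 in SMGA/EGFP and -0.03 in SMAA/EYFP (limma adjusted p = 0.0046 for the difference). The other was for Fgfbp1, a carrier of fibroblast growth factors, at -2.14 and 0.39 (limma adjusted p = 0.014). That count was 1 without SMGA/EGFP 2, SMAA/EYFP 1 or 2, or wild type 1, 3, 4 or 5. With a separate mean for each group and run, the average of the within-run differences passed for 1 probe set, that of Atp6ap2 (limma adjusted p = 0.0028), which is not a shared difference.

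**Figure D1:**
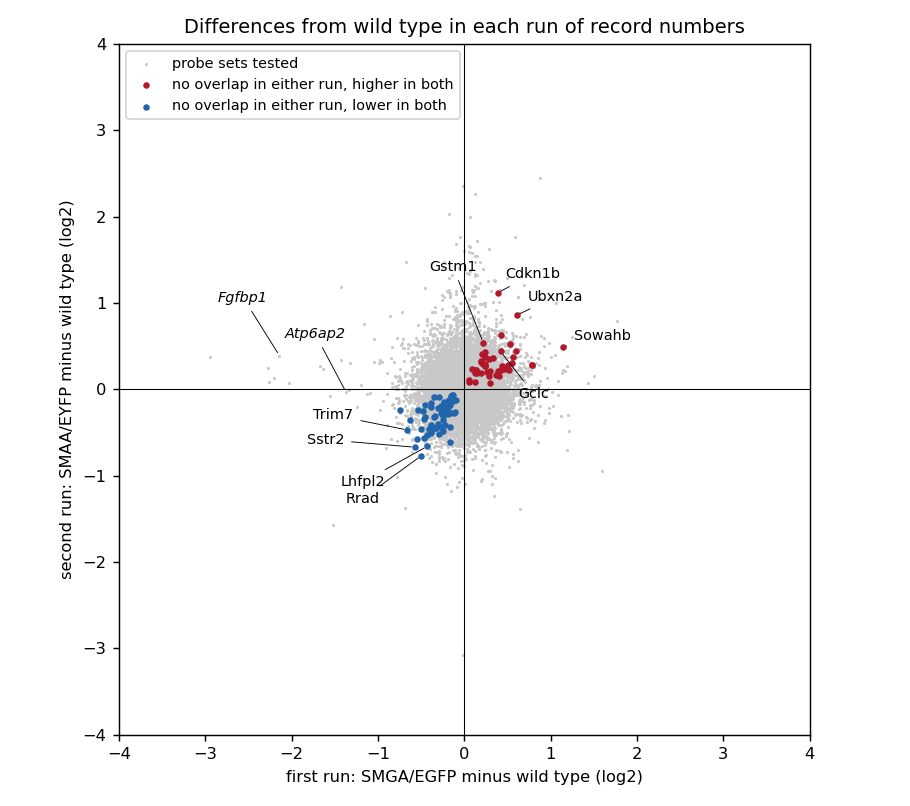
Each point is 1 of the 22518 probe sets, with the log2 difference SMGA/EGFP minus wild type of the first run on the horizontal axis and SMAA/EYFP minus wild type of the second run on the vertical axis. Coloured points are the 45 higher and 69 lower probe sets whose transgenic and wild-type arrays did not overlap in either run, and the cloud shows almost no slope (Pearson r 0.07).

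In 114 probe sets the transgenic arrays lay entirely above or entirely below the wild-type arrays in both runs (0.506% of those tested). They were 45 higher (0.2%) and 69 lower (0.306%), and 108 had 1 gene symbol. Exchanging labels within the runs gives such a separation with a probability of 0.005, the smallest p of the permutation test. The observed share of 0.506% is near that, so the number of such probe sets is about what chance gives. The 30 genes of smallest p among the 114 are described next, 14 higher and 16 lower. None passed: the limma adjusted p with run as a block was 0.759 for Lhfpl2 and 0.962 for each of the other 29. Since they were chosen for arrays that do not overlap, the separation itself is a description and not a result. Where a gene had further tested probe sets, which the choice did not use, these are set beside it: of 25 such probe sets, for 13 of the genes, 17 differed in the gene's direction in both runs (68%), 2 differed against it in both, and 6 were mixed. With the dimmer untested probe sets counted too, 21 of 41 differed in the gene's direction in both runs. Probe sets of a gene read the same samples, so their agreement is not independent evidence.

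Gclc, of smallest p among the higher genes, and Gstm1 act on glutathione, while Sowahb and Ubxn2a lay between them by p. Glutathione is the main small-molecule antioxidant of cells, and Gclc is the catalytic subunit of the ligase that starts its synthesis. The Gclc log2 level was 12.45, 12.40 and 12.21 in SMGA/EGFP against 12.01, 11.93 and 11.86 in wild type of the same run. In the second run it was 12.09, 12.18 and 11.95 in SMAA/EYFP against 11.78, 11.46 and 11.66. The gap was almost the same in each run, 0.42 and 0.44, for 0.43 ± 0.08 with the block (SE, n = 6 and 6; 1.35-fold). A further Gclc probe set differed less, by 0.19 and 0.05.

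Gstm1, a glutathione S-transferase that conjugates glutathione to reactive compounds, lay higher on all of its probe sets. Its log2 level was 14.77, 14.85 and 14.68 in SMGA/EGFP against 14.53, 14.62 and 14.48 in wild type, and 14.70, 14.83 and 14.91 in SMAA/EYFP against 14.55, 14.23 and 14.02. The difference was 0.38 ± 0.09 (SE), 0.22 in the first and 0.54 in the second run. The 3 other probe sets lay 0.19 to 0.30 higher in the first run and 0.16 to 0.42 higher in the second. Mu-class transferases are near-identical copies of each other, so probe sets of this family can read more than 1 gene. Within the list of the oxidative stress response, to which both enzymes belong, 9 of 20 tested genes lay higher in both runs and 4 lower, with a median of 0.04, from 0.02 and 0.08 by run. Its members were not of 1 direction: Gsr, glutathione reductase, lay at 0.14 and 0.22 by run, while Hmox1, a heme oxygenase, was at -0.43 ± 0.17 (limma adjusted p = 0.962).

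Among the other higher genes, Cdkn1b encodes p27, an inhibitor of cyclin-dependent kinases. Its log2 level was 9.58, 9.54 and 9.94 in SMGA/EGFP against 9.50, 9.17 and 9.22 in wild type, and 10.39, 11.28 and 10.97 in SMAA/EYFP against 9.71, 9.97 and 9.59. The difference was 0.76 ± 0.18 (SE), made of 0.39 in the first and 1.12 in the second run, but a further probe set was mixed, at 0.42 and -0.06. Ubxn2a, a UBX-domain cofactor of the p97 ATPase, measured 10.41, 11.24 and 10.70 in SMGA/EGFP against 9.96, 10.22 and 10.33, and 10.51, 10.09 and 10.11 in SMAA/EYFP against 9.71, 9.20 and 9.20. Its difference was 0.74 ± 0.16 (SE), with the further probe set at 0.08 and 0.25.

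Sowahb, an ankyrin repeat protein, had the largest difference of the 30. It measured 9.57, 10.22 and 9.89 in SMGA/EGFP against 8.63, 9.09 and 8.54, and 9.17, 8.93 and 9.13 in SMAA/EYFP against 8.48, 8.60 and 8.68. The difference was 0.82 ± 0.16 (SE; 1.76-fold), and the first run contributed 1.14 against 0.49 in the second. Slc25a30, a mitochondrial carrier, lay 0.47 ± 0.12 higher. Both of its other tested probe sets lay higher in both runs too, by 0.47 and 0.17 and by 0.48 and 0.23. Of its dimmer untested probe sets, 1 lay higher at 0.52 and 0.07 and 1 lower at -0.27 and -0.35.

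The other 8 higher genes lay between 0.26 and 0.53. Gjb6 is connexin 30, a gap junction protein, and it measured 12.90, 13.12 and 13.28 in SMGA/EGFP against 12.82, 12.79 and 12.72, and 13.04, 13.09 and 13.07 in SMAA/EYFP against 12.99, 12.60 and 12.51. Its difference was 0.35 ± 0.09 (SE), and wild type 4 lay just below the lowest SMAA/EYFP array. Rttn, a centriole protein, was at 0.53 ± 0.15, but a dimmer untested probe set lay the other way at -0.55 and -0.57. Bspry was at 0.43 ± 0.11, and Pgap2, which remodels glycosylphosphatidylinositol anchors, at 0.31 ± 0.09. A further Pgap2 probe set lay at 0.16 and 0.21 by run, and another was mixed at -0.14 and 0.50. Igsf8, Plekhf1, Glod4 and Tmem205 lay between 0.26 and 0.30.

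The lower genes were led by Lhfpl2, a tetraspan membrane protein with the smallest p of the whole array. It measured 11.65, 11.75 and 11.64 in SMGA/EGFP against 12.20, 12.06 and 12.07 in wild type, and 11.14, 11.31 and 11.57 in SMAA/EYFP against 12.05, 12.10 and 11.86. The difference was -0.55 ± 0.09 (SE; 1.46-fold lower), at -0.43 in the first and -0.66 in the second run. Its 2 other tested probe sets lay lower in both runs, at -0.36 and -0.47 and at -0.42 and -0.23, and so did a dimmer one at -0.28 and -0.17. Lhfpl2 therefore differed in 1 direction on every probe set of the gene, without passing the test.

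Among the other lower genes, Has2 is the main synthase of hyaluronan, a polysaccharide of the embryonic stroma. It measured 10.02, 9.88 and 9.98 in SMGA/EGFP against 10.31, 10.16 and 10.71 in wild type, and 9.81, 9.86 and 9.81 in SMAA/EYFP against 10.14, 10.35 and 10.57. The difference was -0.48 ± 0.11 (SE), and the other Has2 probe set lay at -0.34 and -0.73. Aplnr, the apelin receptor of growing vessels, measured 13.78, 13.26 and 13.70 in SMGA/EGFP against 14, 13.91 and 14.03, and 13.46, 13.69 and 13.62 in SMAA/EYFP against 14.27, 14.17 and 13.72. Its difference was -0.43 ± 0.10 (SE), with the other probe set at -0.38 and -0.34, and the highest SMAA/EYFP array lay only just below wild type 6. The endothelial marker list lay on the same side (below), and its part in the Aplnr value was not tested.

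Nr3c1 and Igf2 had smaller differences. Nr3c1, the glucocorticoid receptor, measured 12.13, 12.15 and 12.21 in SMGA/EGFP against 12.41, 12.30 and 12.47, and 12.33, 12.35 and 12.40 in SMAA/EYFP against 12.67, 12.65 and 12.55. The difference was -0.25 ± 0.06 (SE). All 3 other tested probe sets lay lower in both runs, at -0.27 to -0.22 in the first and -0.35 to -0.14 in the second. Of its dimmer untested probe sets, 1 lay higher at 0.04 and 0.20 and 1 was mixed at -1.62 and 0.04. Igf2, the imprinted growth factor of the fetus, measured 14.67, 14.39 and 14.62 in SMGA/EGFP against 14.80, 14.76 and 14.75, and 14.81, 14.67 and 14.65 in SMAA/EYFP against 14.88, 14.93 and 14.87. Its difference was -0.20 ± 0.05 (SE), or 1.15-fold. In the list of the glucocorticoid and fasting response, 9 of 19 tested genes lay higher in both runs and 2 lower, with a median of 0.37 in the first and -0.08 in the second run. That list's median with the block was 0.26, or 0.07 without SMGA/EGFP 1. Cdkn1a, a cell cycle inhibitor and the member of smallest p, was at 0.41 ± 0.12. Both of the list's lower genes were among the 3 of smallest p: Angptl4, a lipase inhibitor induced by fasting, was at -0.72 ± 0.27 and Txnip, a thioredoxin inhibitor, at -0.24 ± 0.10.

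The remaining 11 lower genes lay between -0.64 and -0.20. Rrad, a small GTPase that restrains voltage-gated calcium channels, was at -0.64 ± 0.17, and it was at -0.49 without wild type 5, its highest array. Sstr2, a somatostatin receptor, was at -0.62 ± 0.18, and Trim7, a ubiquitin ligase, at -0.56 ± 0.15. For Trim7, 1 dimmer untested probe set lay the other way at 0.35 and 0.18, and another lay lower at -0.24 and -0.67. Dagla, which makes the endocannabinoid 2-arachidonoylglycerol, was at -0.44 ± 0.13. Rrad, Sstr2, Trim7 and Dagla were dim, with mean log2 levels of 8.85, 8.14, 8.65 and 8.79 against the filter at 8.02. Ints8, of the Integrator complex, was at -0.51 ± 0.12, with a further probe set at -0.68 and -0.06 by run and a brighter one mixed at -0.15 and 0.01. Gtf3c5, of the RNA polymerase III factor TFIIIC, was at -0.44 ± 0.13. Qk, an RNA-binding protein with many transcript forms, was at -0.35 ± 0.09 on 1 probe set while its 5 other tested probe sets lay between -0.03 and 0.12 in the first run and between -0.36 and 0.07 in the second. Bcl2l12, Coro1a, Fam13b and Ndufs1 made up the rest, at -0.39, -0.40, -0.26 and -0.20. A dimmer untested probe set of Fam13b lay the other way at 0.58 and 0.12, and 1 of Bcl2l12 was mixed at -0.25 and 0.83.

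**Figure D2:**
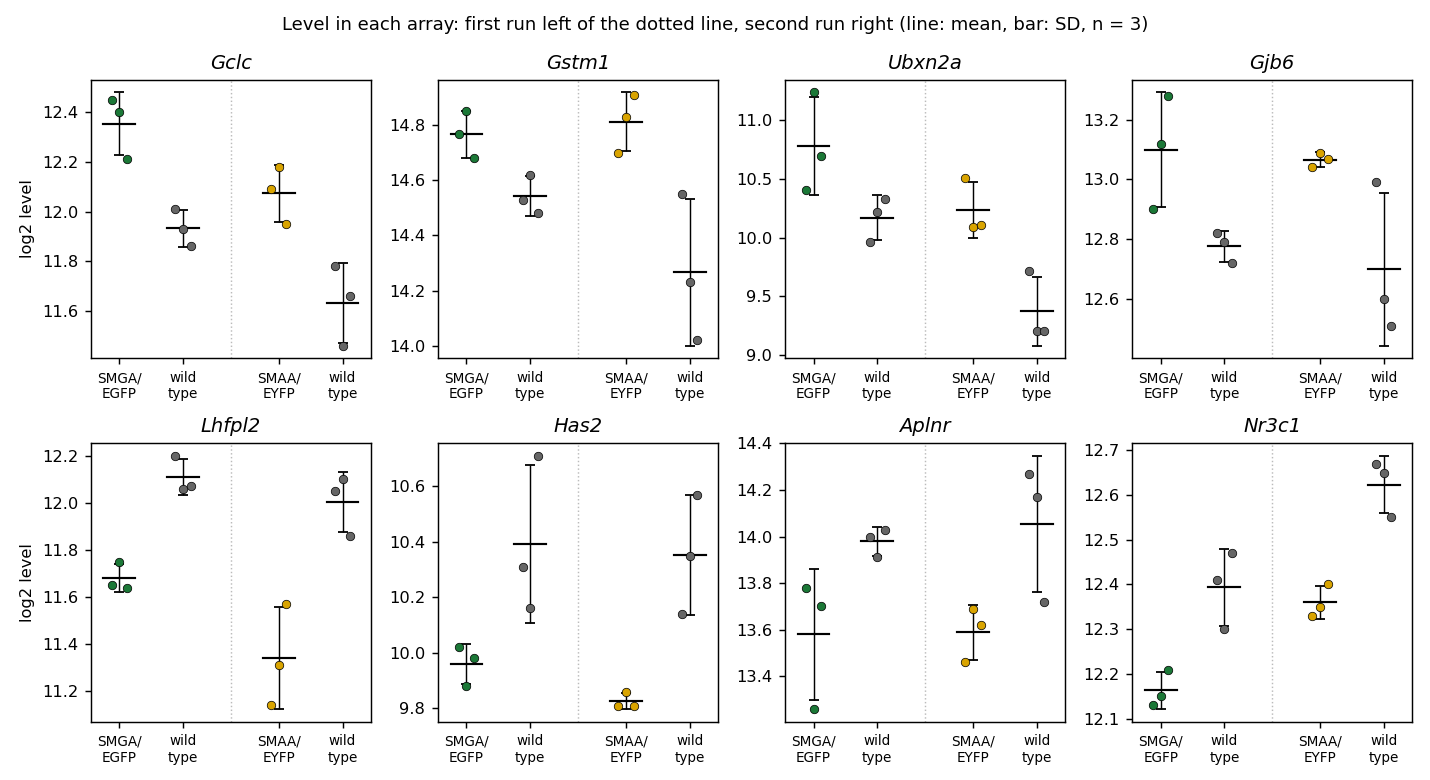
Log2 level of 4 higher genes (Gclc, Gstm1, Ubxn2a, Gjb6) and 4 lower genes (Lhfpl2, Has2, Aplnr, Nr3c1) in each of the 12 arrays, 1 point per array, with the mean as a line and the SD as a bar (n = 3 per group and run). In every panel the transgenic points of a run lie on 1 side of the wild-type points of that run, which is how these genes were chosen, and none passed the test.

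Gene lists were read by their counts and medians, with 1 probe set per gene, the brightest. Over all 11730 genes tested this way, 24.7% lay higher in both runs, 28.1% lay lower in both, and the median log2 difference was -0.01. At an unadjusted p under 0.05, 2.61% lay higher in both and 2.63% lower in both. In every list 0 genes passed the adjusted threshold. Genes of a list can move together in an array, so they are not independent replicates and their counts do not add up as evidence. A whole bladder mixes cell types, so a lower level can come from fewer cells of a type or from less RNA per cell, which cannot be told apart. Both defining layers of the organ were plainly present: all 33 measured urothelium genes and all 34 measured smooth muscle contractile genes were above the filter.

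Urothelial genes lay higher, with 25 of 33 tested above wild type in both runs, 0 below in both and 8 on opposite sides. The median difference was 0.22, from 0.08 and 0.33 by run, and 8 of the 33 had an unadjusted p under 0.05. Upk2, a uroplakin, measured 13.07, 13.31 and 13.32 in SMGA/EGFP against 12.81, 13.15 and 12.86, and 13.18, 13.49 and 13.49 in SMAA/EYFP against 13.37, 12.68 and 12.74. Its difference was 0.37 ± 0.12 (SE; limma adjusted p = 0.962), and the arrays overlapped in both runs through SMGA/EGFP 1 and wild type 4. Upk1a, its partner in the plaque, was at 0.34 ± 0.11, and Foxq1, a forkhead factor, at 0.43 ± 0.14, with adjusted p = 0.962 in limma for each.

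The other urothelial genes at an unadjusted p under 0.05, named after their values were seen, were Krt7, Psca, Foxa1, Klf5 and Upk3a. Krt7, a keratin of simple and transitional epithelia, was at 0.11 in the first and 0.40 in the second run. Foxa1, a pioneer factor of urothelial differentiation, was at 0.12 and 0.39, and Klf5, a Krüppel-like factor of epithelia, at 0.33 and 0.36. Basal markers were less even: Trp63, the p63 factor, lay at 0.22 and 0.41, and Krt5 at 0.07 and 0.38, while Krt14 lay at -0.36 and 0.71.

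The urothelial difference rested on single arrays in the first run. The list score, the mean log2 deviation of the 33 genes from their averages over the 12 arrays, was -0.23, 0.19 and 0.24 in SMGA/EGFP against -0.06, 0.27 and -0.29 in wild type. In SMAA/EYFP it was 0.06, 0.11 and 0.27 against 0.03, -0.47 and -0.11. So the groups overlapped in the first run, where wild type 2 was the highest array and SMGA/EGFP 1 lay below wild type 1, and they did not overlap in the second. The count of genes higher in both runs was 16 without wild type 3 and 32 without SMGA/EGFP 1, and the median ran from 0.15 to 0.30 when each array was left out in turn, with 0.29 without wild type 4.

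Endothelial genes lay lower, in 22 of 23 tested in both runs, with Vwf at 0.01 in each as the exception. The median was -0.25, from -0.15 and -0.27 by run. Tek, the angiopoietin receptor, measured 10.78, 10.69 and 10.70 in SMGA/EGFP against 11.05, 10.93 and 11.07, and 11.04, 10.83 and 10.76 in SMAA/EYFP against 11.20, 11.16 and 10.97. Its difference was -0.26 ± 0.08 (SE; limma adjusted p = 0.962), with no overlap in the first run and SMAA/EYFP 1 above wild type 6 in the second.

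Icam2, an adhesion molecule of the endothelial surface, measured 10.12, 8.84 and 10 in SMGA/EGFP against 10.52, 10.53 and 10.48, and 10.83, 9.62 and 9.89 in SMAA/EYFP against 10.42, 10.69 and 10.95. The difference was -0.71 ± 0.23 (SE), with SMGA/EGFP 2 the lowest array and SMAA/EYFP 1 within the wild-type range. Cldn5, the tight junction claudin of endothelium, was at -0.36 ± 0.17, and Cdh5, the endothelial cadherin, lay at -0.13 and -0.39 by run. These 3 of smallest p, Tek, Icam2 and Cldn5, were the ones at an unadjusted p under 0.05.

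One array carried much of the endothelial count. The list score was 0.16, -0.48 and -0.08 in SMGA/EGFP against 0.19, -0.07 and 0.08 in wild type, and 0.08, -0.19 and -0.24 in SMAA/EYFP against 0.14, 0.31 and 0.08. Without SMGA/EGFP 2 the count of genes lower in both runs was 11 and the median -0.14. Over the 11 other arrays left out in turn the count was 17 to 22. The order of the arrays was partly reversed between the lists: wild type 5 was lowest for urothelium and highest for endothelium. Summed intensity over the endothelial genes ran from 37964 to 58206 in SMGA/EGFP and from 48714 to 57108 in its wild type, and from 42920 to 52908 in SMAA/EYFP and from 52524 to 63169 in its wild type. How far the share of either cell type moved with the single genes above was not tested.

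**Figure D3:**
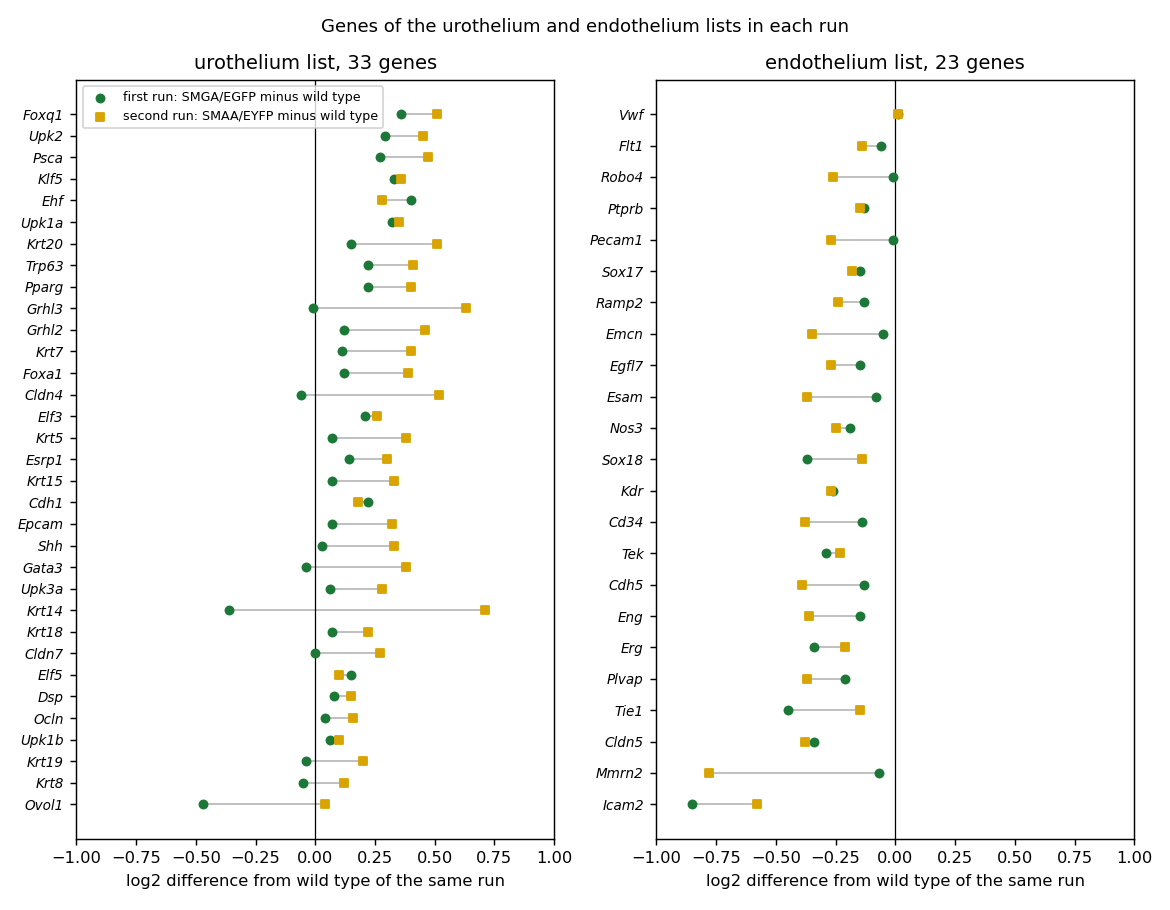
Log2 difference from wild type within a run for each tested gene of the urothelium list (33 genes, left) and the endothelium list (23 genes, right), with 1 marker per run. In the left panel 25 genes have both markers above 0, and in the right panel 22 have both below 0, while the sizes differ between the runs.

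Lymphatic endothelium did not follow: 1 of 5 tested genes lay higher in both runs, 0 lower, with a median of 0.00. Pericytes, the mural cells of capillaries, had 5 of 10 lower and 1 higher, with a median of -0.13. Rgs5, their best-known marker, was at 0.17 ± 0.09, on the other side from Kcnj8 at -0.16 ± 0.11.

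Leukocyte genes lay lower in 15 of 24 tested in both runs and higher in 1, with a median of -0.17, from -0.12 and -0.22 by run. Ptprc is CD45, the phosphatase on the surface of all white blood cells. It measured 9.38, 9.23 and 9.14 in SMGA/EGFP against 9.52, 9.53 and 9.72, and 9.25, 9.49 and 8.98 in SMAA/EYFP against 9.73, 9.85 and 9.49. The difference was -0.39 ± 0.12 (SE; limma adjusted p = 0.962), and the arrays met without crossing, since SMAA/EYFP 2 and wild type 6 were equal to 2 decimals.

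Coro1a, an actin-binding protein of leukocytes, measured 8.94, 8.66 and 9.07 in SMGA/EGFP against 9.38, 9.16 and 9.28, and 9.03, 8.99 and 9.02 in SMAA/EYFP against 9.30, 9.51 and 9.45. Its difference was -0.40 ± 0.11 (SE), yet a further probe set of the gene lay at 0.07 and 0.12. Pf4, a chemokine of platelets and macrophages, was at -0.24 ± 0.13. Complement C1q genes were mixed, with C1qa at 0.06 and -0.07 by run and C1qb at 0.26 and -0.09. The leukocyte count was 8 without SMGA/EGFP 3, against 15. It was 6 with a filter at the 75th percentile, which also leaves fewer genes of the list to count. Mast cell genes had 1 of 5 higher and 1 lower, with a median of -0.11, and Kit, their growth factor receptor, was at -0.13 ± 0.12.

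**Figure D4:**
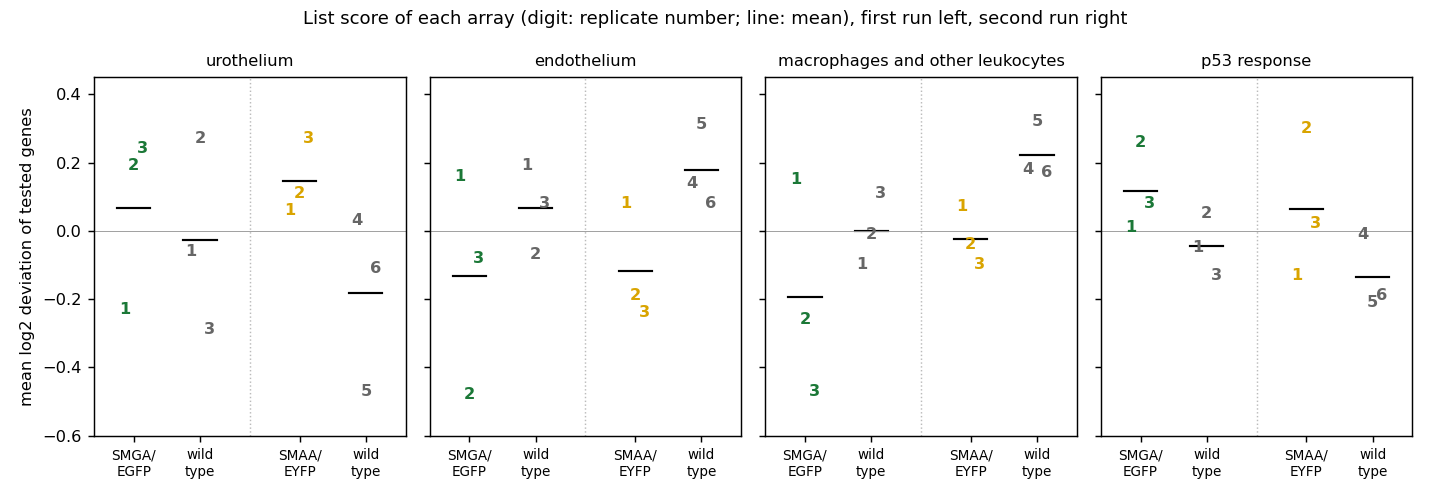
List score of each array for 4 lists, the mean log2 deviation of the tested genes from their averages over the 12 arrays, with the replicate number as the symbol and the group mean as a line. All 4 lists overlap between the groups in the first run, and SMGA/EGFP 1 lies on the wild-type side for urothelium, endothelium and leukocytes.

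The contractile muscle genes lay close to wild type. Of 34 contractile apparatus genes, 2 lay higher in both runs, 11 lower and 21 on opposite sides, with a median of -0.04, from 0.02 and -0.11 by run. Myh11, the smooth muscle myosin heavy chain, lay at 0.06 and -0.06 by run, and Des, the muscle intermediate filament, at 0.15 and -0.27. Myocd, myocardin, was at -0.24 ± 0.13 with the block, Nexn, an actin-binding protein, at -0.23 ± 0.11, and Ldb3, a Z-disc protein, at -0.31 ± 0.17 (limma adjusted p = 0.962 for each).

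Receptors and ion channels of smooth muscle lay lower in 10 of 15 tested and higher in 0, with a median of -0.19, from -0.06 and -0.32 by run. Ednrb, an endothelin receptor, measured 12.85, 12.68 and 12.93 in SMGA/EGFP against 13.24, 12.83 and 13.02, and 12.99, 12.96 and 12.95 in SMAA/EYFP against 13.36, 13.21 and 13.04. Its difference was -0.22 ± 0.08 (SE), with overlap in the first run through wild type 2. Ednrb is also made by endothelium and glia, and their part in its value was not tested. P2rx1, the ATP-gated channel of bladder contraction, lay at -0.30 and -0.13 by run. Pln, the calcium pump inhibitor phospholamban, was at -0.40 ± 0.22 and Trpc4, a cation channel, at -0.29 ± 0.18. The count was 6 without SMGA/EGFP 2, against 10. It was 4 with a filter at the 75th percentile, which also leaves fewer genes of the list to count.

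Fibroblast and matrix genes lay lower in 18 of 32 and higher in 0, with a median of -0.10, from -0.02 in the first and -0.18 in the second run. By p, though not by size, collagen V led: Col5a1 was at -0.16 ± 0.06 and Col5a2 at -0.12 ± 0.05, while Col1a1 was at -0.13 ± 0.07 and Col3a1 lay at 0.00 and -0.01 by run. Among members named after their values were seen, Dpt, dermatopontin, was larger but less precise at -0.29 ± 0.18, as was Lum, lumican, at -0.25 ± 0.15. The count was 28 when SMGA/EGFP 1 was left out and 12 when SMGA/EGFP 3 was.

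Lists of other tissues were read the same way. Mesothelium, the outer cover of the bladder, had 3 of 12 higher in both runs and 3 lower, with medians of -0.37 in the first and 0.22 in the second run. With the block it was -0.22, or -0.12 without SMGA/EGFP 1 and 0.08 with a filter at the 75th percentile. Several members, named after their values were seen, lay on opposite sides: by run, Gpm6a lay at -2.27 and 0.25, Lrrn4 at -2.26 and 0.08, Bnc1 at -1.67 and 0.27, Muc16 at -1.63 and 0.24, and Msln, mesothelin, at -1.05 and 0.58. Gpm6a, Lrrn4 and Bnc1 were among the 10 probe sets past the threshold in the first run. Of members with 1 sign in both runs, Upk3b, a uroplakin of mesothelium, was at 0.17 ± 0.08, Upk1b at 0.08 ± 0.05 and Nkain4 at -0.20 ± 0.14. Upk1b and Krt19 are also on the urothelium list, so the mesothelium counts read urothelium in part. Neurons and Schwann cells had 9 of 19 higher and 1 lower, but the median was 0.00 and 0.66 by run, and with the block it was 0.37, or 0.12 without wild type 3, 0.17 without SMAA/EYFP 3 and 0.58 without wild type 1. Uchl1, a neuronal hydrolase, was at 0.37 ± 0.16, and Chrna3, a ganglionic acetylcholine receptor subunit, at 0.62 ± 0.34. Skeletal muscle had 6 of 14 higher and 6 lower, with a median of 0.02, Tnnt1 at -0.38 ± 0.15 and Myl1 at 1.67 ± 0.92. Adipocytes had 1 of 7 higher and 2 lower, with a median of -0.11, or -0.06 without wild type 4. Erythroid cells had 0 of 4 higher and 2 lower, with a median of -0.29 that was -0.49 without wild type 4, -0.18 without SMGA/EGFP 2 and -0.17 without SMAA/EYFP 3. Alas2, of heme synthesis, was at -0.61 ± 0.33. Prostate and Wolffian duct had 2 of 3 higher and 0 lower, with a median of 0.27 that was 0.03 without wild type 3, 0.15 without wild type 6 and 0.00 with no filter. Defb1, a defensin, was at 0.55 ± 0.19.

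Among cell states, the p53 response had the largest share in 1 direction, with 12 of 17 tested genes higher in both runs and 1 lower. Its median was 0.17, from 0.12 in the first and 0.20 in the second run. Cdkn1a is p21, the cell cycle inhibitor induced by p53 and also by glucocorticoids. It measured 12.28, 12.52 and 11.90 in SMGA/EGFP against 11.81, 12.30 and 11.82, and 12.03, 11.98 and 12.19 in SMAA/EYFP against 11.49, 11.38 and 11.62. The difference was 0.41 ± 0.12 (SE; limma adjusted p = 0.962), with no overlap in the second run and wild type 2 within the SMGA/EGFP range in the first. Btg2, an antiproliferative gene that is also an immediate early gene, was at 0.41 ± 0.15, Sesn2, a stress-induced sestrin, at 0.40 ± 0.20, and Mdm2, the ligase that degrades p53, lay at 0.12 and 0.25 by run. The count was 7 without SMGA/EGFP 2, and the median was 0.06 without SMAA/EYFP 2. Those arrays had the highest p53 scores of their groups, 0.26 and 0.30.

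Cell cycle genes lay lower in 15 of 35 and higher in 1, with medians of -0.18 and 0.00 by run. The median with the block was -0.06, but 0.00 without SMGA/EGFP 1, whose list score of -0.47 was the lowest. It was -0.17 when SMGA/EGFP 3 was left out and -0.11 without wild type 4. Tpx2, a spindle protein, was at -0.35 ± 0.16. Immediate early genes lay higher in 11 of 23 and lower in 4, with a median of 0.16 that ran from 0.00 without wild type 5 to 0.29 without wild type 6, and was 0.09 without wild type 4. Junb, an AP-1 subunit, was at 0.43 ± 0.23. Interferon response genes lay higher in 8 of 19 and lower in 1, with a median of 0.08 that was 0.01 without SMGA/EGFP 1 and 0.16 without wild type 3. Tap1, the peptide transporter for antigen presentation, was at 0.39 ± 0.15. Cholesterol synthesis had 5 of 20 higher and 1 lower, with medians of -0.11 and 0.33 by run. The median with the block was 0.10, and 0.05 without wild type 4. Lss, lanosterol synthase, was at 0.40 ± 0.14. Circadian clock genes had 3 of 15 higher and 2 lower, with a median of 0.07, or 0.04 without wild type 4, and Npas2 was at -0.35 ± 0.14. Hedgehog, Wnt and BMP signalling lay lower in 12 of 29 and higher in 4, with a median of -0.10, and Gli2, a Hedgehog effector, and Wnt2 were at -0.26 ± 0.11 and -0.27 ± 0.12.

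Oxidative phosphorylation genes lay lower in 18 of 43 and higher in 2, but the median was only -0.03. Ndufs1, the largest subunit of complex I, measured 13.16, 13.14 and 13.25 in SMGA/EGFP against 13.43, 13.33 and 13.51, and 13.28, 13.37 and 13.32 in SMAA/EYFP against 13.49, 13.56 and 13.43. Its difference was -0.20 ± 0.06 (SE; 1.15-fold), with no overlap in either run. Cox7c, of complex IV, was at -0.48 ± 0.15 and Atp5o, of ATP synthase, at -0.15 ± 0.05. Mitochondrial ribosomal proteins lay lower in 16 of 36 and higher in 6, with a median of -0.03, and Mrps18a was at -0.17 ± 0.09.

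Further lists lay near 0. Cytosolic ribosomal proteins had 12 of 31 higher and 10 lower, with a median of 0.00, and the proteasome had 9 of 31 higher and 6 lower, with a median of -0.01. Endoplasmic reticulum stress had 5 of 24 higher and 4 lower, with a median of -0.01, and Dnajc3, a chaperone of that compartment, was at 0.21 ± 0.10. Splicing and nuclear speckle proteins had 5 of 34 higher and 8 lower, with a median of -0.01, and Srsf5 was at -0.18 ± 0.06. Hypoxia and glycolysis had 7 of 25 higher and 7 lower, with a median of -0.01, and Adm, adrenomedullin, was at 0.49 ± 0.31. Cytosolic heat shock genes had 0 of 17 higher and 6 lower, with a median of -0.06, or -0.10 without wild type 4, and Hspa1b, an inducible Hsp70, was at -0.19 ± 0.07.

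**Figure D5:**
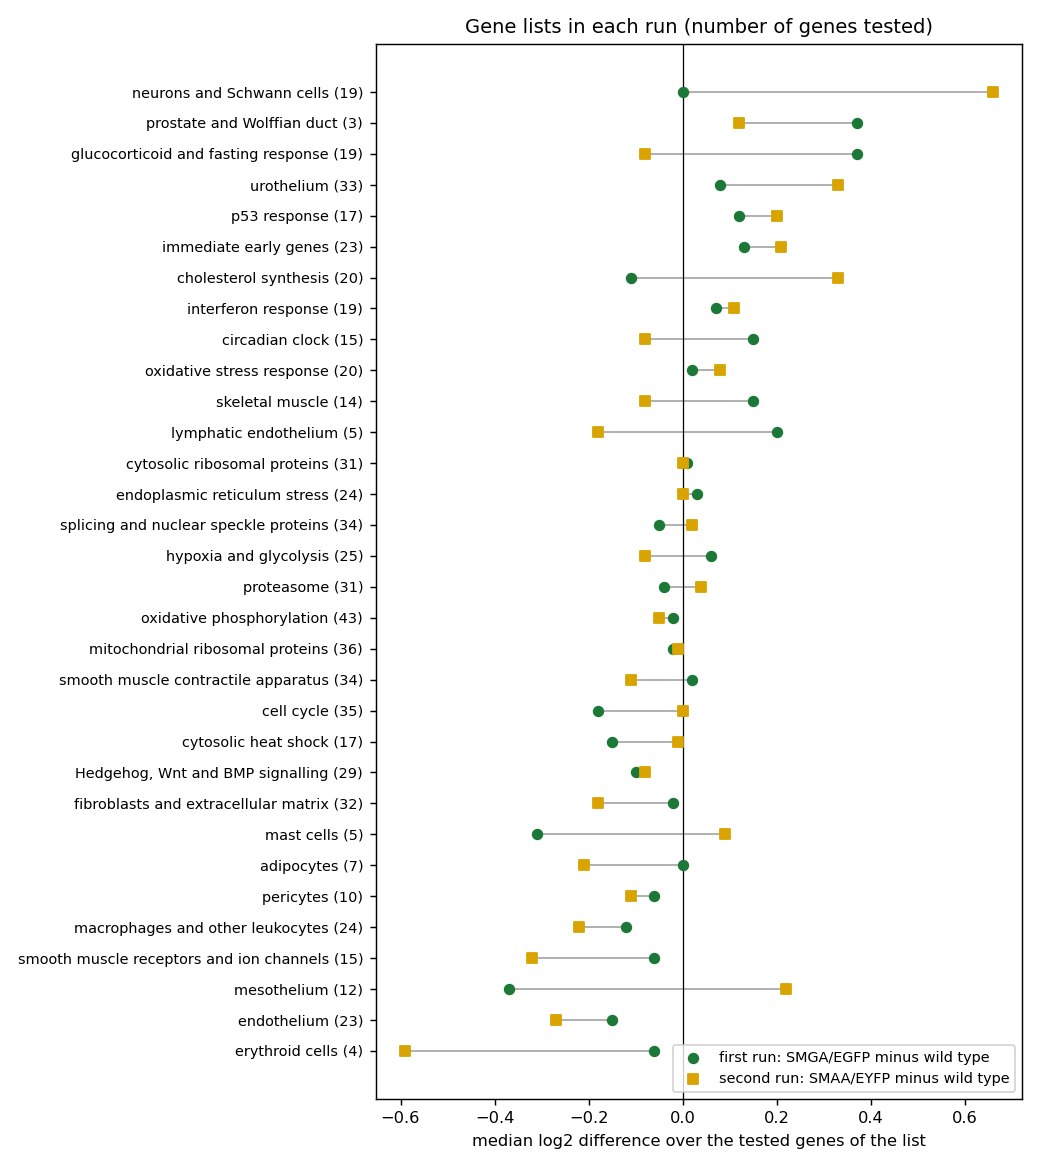
Median log2 difference from wild type within a run over the tested genes of each of the 32 lists (number of genes in brackets), with circles for SMGA/EGFP in the first run and squares for SMAA/EYFP in the second. Lists right of 0 in both runs include urothelium (0.08 and 0.33), p53 response (0.12 and 0.20) and immediate early genes (0.13 and 0.21). Prostate and Wolffian duct (0.37 and 0.12), interferon response (0.07 and 0.11) and oxidative stress response (0.02 and 0.08) do too. Lists left of 0 in both runs include endothelium (-0.15 and -0.27) and leukocytes (-0.12 and -0.22). Mesothelium, cholesterol synthesis and the glucocorticoid list are among those on opposite sides.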

How the data were processed

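The deposited values were linear intensity per probe set, 1 column for each of 12 arrays, produced by the authors in GCOS, per the submitters' processing notes. Its version, algorithm, detection calls and filters are not given in the sources used here. RNA was purified on RNeasy columns and amplified in 1 round, per the labels' protocols. The values were not summed counts, so the number of arrays, 3 per group and run, limits the precision.

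Of 45101 probe sets, 64 controls were left out. Values were taken as log2(intensity + 16), quantile-normalized between arrays, and the brighter 22518 probe sets, with a mean over log2 8.02 (the median), entered the tests. Symbols were those of the platform annotation in GEO, checked through a RefSeq table (GRCm38.p6) that changed 0: of 45037 probe sets, 34945 had 1 symbol, 932 several and 9160 were not listed. Those tested with 1 symbol numbered 20089, for 11730 genes.

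Tests used limma 3.58.1 in R 4.3.3 (lmFit, eBayes with an intensity trend, two-sided, Benjamini-Hochberg over all tested, threshold 0.05). The difference between transgenic and wild type had the record run as a block, and within-run values came from a fit of group and run means over all 12 arrays. The fit was tested on simulated data. Errors of differences are limma standard errors (SE), and levels are per array.

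Named genes were those past the threshold with the same sign in both runs. As there were none, the 30 of smallest p whose arrays did not overlap in either run were taken, with the probe set of smallest p. Added to them were up to 3 genes of smallest p and equal sign per list, Acta2, Actg2, Xist and 3 Y-linked genes. Genes outside that rule were named after their values were seen, as examples of a list. The members, the 32 lists and the rule were chosen with earlier results of these data known. Alternatives were other normalizations, pseudocounts, filters and model options, no block, and each array left out. Figures used Python 3.11.15 and matplotlib 3.10.9.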

Additional observations from a re-analysis of the deposited data

Results flagged for a closer look

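In 136 sets of 6 transgenic or 6 wild-type arrays checked, 11 had 1 array apart from the others by more than 0.625 of the set's range, and chance gives this in about 1 in 20 sets. Among the genes without overlap, wild type 2 was the highest wild-type array for Sowahb (gap over range 0.672, level 9.09 against 8.48 to 8.68). Wild type 1 was lowest for Trim7 (0.696), wild type 5 highest for Rrad (0.83, level 9.92 against 8.92 to 9.09) and wild type 4 highest for Pgap2 (0.632). SMGA/EGFP 2 was the lowest transgenic array for Coro1a (0.683).

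Wild type 4 stood apart for the sex-linked genes, with Xist highest (0.903) and Eif2s3y (0.938), Kdm5d (0.902) and Uty (0.893) lowest among the wild-type arrays. For list scores, SMGA/EGFP 1 was the lowest transgenic array for the oxidative stress response (0.667, score -0.16), and wild type 2 was the highest wild-type array for skeletal muscle (0.71, score 1.09).

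The within-run differences of Atp6ap2 and Fgfbp1 were unequal by limma's contrast between the runs, at -1.34 and -2.53 (first run minus second).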

How the results depend on the processing

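The 30 named genes were chosen for arrays that do not overlap, so leaving out an array cannot turn their sign. Of their 705 values under the alternatives, 0 passed the threshold (limma or permutation adjusted p 0.231 to 1, the lowest from limma with array weights). The permutation values among them could hardly have passed, as said above. The count past the threshold with run as a block was 0 in 24 of 25 alternatives and 1 with a mean for each group and run. The first-run count of 10 was 6 with no filter, 4 with a 75th percentile filter, 5 without an intensity trend, 1 with only the 6 arrays of the run, and 2 to 9 with each array left out. The second-run count of 0 was 3 with array weights. The contrast between runs, 2, was 1 with arrays centred on their median or 1 probe set per gene, 0 without a trend, and 1 to 3 with each array left out. With each array left out, the urothelium count of 25 was 16 to 32 and the endothelium count of 22 was 11 to 22. Without wild type 4 these were 25 and 22. The causes were not tested.

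Of 604 list medians under the alternatives, 601 stayed within 1 SD of the main value. That SD was the spread of the list's array scores within a group and run, not an error of the median. It is a wide margin: the neuron and Schwann cell median of 0.37 counted as within it even at 0.12. In 13 of 32 lists the median reached 0 or changed sign in some alternative, among them mesothelium, prostate and Wolffian duct, and immediate early genes. No paired analysis was possible because the labels link no transgenic array to a wild-type array, by litter or otherwise. With 6 arrays against 6 and a median SE of 0.13, small shared differences were not detectable. Acta2 and Actg2 lay near the top of the intensity range, where differences can be compressed.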

Other observations

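Among the 114 probe sets without overlap in either run were genes beyond the 30 described, named here after their values were seen and not passing the test. C3ar1, the receptor for complement C3a on myeloid cells, was at -0.63 in SMGA/EGFP and -0.36 in SMAA/EYFP, and Sirpa, an inhibitory receptor of the same cells, at -0.25 and -0.31. Igfbp4, a binding protein of insulin-like growth factors, was at -0.22 and -0.41, in the direction of Igf2. Lower transcription factors included Hoxd10, of the homeobox clusters, at -0.30 and -0.40, and Tead2, a Hippo pathway factor, at -0.25 and -0.36. Tshz3, a zinc finger protein of urinary tract smooth muscle, was also lower, at -0.17 and -0.44. Another transcription factor, Mxd1, lay higher, at 0.40 and 0.16. P3h1, a collagen prolyl hydroxylase, was at -0.19 and -0.29, and Chst11, a chondroitin sulfotransferase, at -0.46 and -0.32. On the higher side, Smoc1, a matricellular protein, was at 0.79 and 0.28, Homer1, a scaffold protein, at 0.51 and 0.28, and Polk, a translesion polymerase, at 0.24 and 0.37.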
